A study of Rattus norvegicus with 3 samples.

Results

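The 10 genes described here mark sympathetic neurons and the peptides and vesicles they release: Npy, Th, Ddc, Dbh, Slc18a2, Chga, Chgb, Scg2, Nefl and Prph. They were chosen by name, and a probe was assigned to a gene through its RefSeq accession, among 15287 genes named on any of the arrays. RNA came from whole common carotid arteries of male Wistar rats, which were uninjured, or were taken 7 days or 21 days after balloon injury, a procedure in which an inflated catheter strips the endothelium and stretches the wall. The study design describes 2 independent experiments at each time in different rats; 1 one-colour Agilent array per group is analysed here, so no test was possible and every difference below is one between 2 arrays. All 10 genes had a probe on the design shared by the uninjured and day 21 arrays, and 5 (Npy, Ddc, Slc18a2, Chga and Nefl) had a probe that the different design of the day 7 array also carried. The other 5 were read at day 7 by another probe, whose signal cannot be set against the other arrays.

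The carotid artery is innervated by postganglionic sympathetic axons that run in the adventitia at its border with the media. The cell bodies of these neurons, where most of their messenger RNA is made, lie outside the vessel in cervical ganglia. Their terminals release noradrenaline together with neuropeptide Y and with the granin proteins of dense-core vesicles. Noradrenaline is made from tyrosine in steps catalysed by tyrosine hydroxylase (Th), aromatic L-amino acid decarboxylase (Ddc) and dopamine beta-hydroxylase (Dbh). Several of the genes are also active elsewhere: the vesicular monoamine transporter gene Slc18a2 is expressed in mast cells and platelets, and Npy in other cell types than neurons. In whole-artery RNA, fewer cells of a type and less RNA per cell cannot be told apart.

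Several catecholamine and granin genes are known for control through cyclic AMP, so promoters were compared for the letters of its response element. The 250 bases before the annotated start of 4 of the genes, from RefSeq (assembly GRCr8), read 5′ to 3′ as follows, with capitals for the cyclic AMP response element TGACGTCA, for the shorter TGACG within it and for the GC box GGGCGG, each on either strand.
Npy, chr4:80211861-80212110, plus strand: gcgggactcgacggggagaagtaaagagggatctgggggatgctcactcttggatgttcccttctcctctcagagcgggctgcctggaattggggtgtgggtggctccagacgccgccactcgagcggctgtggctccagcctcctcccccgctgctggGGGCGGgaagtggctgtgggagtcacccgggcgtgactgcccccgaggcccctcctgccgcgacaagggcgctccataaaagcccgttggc
Th, chr1:207508219-207508468, minus strand: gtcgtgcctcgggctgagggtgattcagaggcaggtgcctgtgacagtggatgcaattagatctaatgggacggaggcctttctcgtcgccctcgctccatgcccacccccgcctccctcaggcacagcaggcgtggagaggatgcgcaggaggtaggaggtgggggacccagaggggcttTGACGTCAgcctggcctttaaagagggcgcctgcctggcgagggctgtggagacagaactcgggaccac
Scg2, chr9:88256867-88257116, minus strand: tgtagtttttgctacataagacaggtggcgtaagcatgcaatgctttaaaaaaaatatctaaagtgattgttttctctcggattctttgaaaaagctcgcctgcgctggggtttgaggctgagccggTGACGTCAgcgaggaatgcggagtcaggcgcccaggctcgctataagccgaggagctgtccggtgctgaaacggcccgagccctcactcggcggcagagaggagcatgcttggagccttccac
Slc18a2, chr1:268399771-268400020, plus strand: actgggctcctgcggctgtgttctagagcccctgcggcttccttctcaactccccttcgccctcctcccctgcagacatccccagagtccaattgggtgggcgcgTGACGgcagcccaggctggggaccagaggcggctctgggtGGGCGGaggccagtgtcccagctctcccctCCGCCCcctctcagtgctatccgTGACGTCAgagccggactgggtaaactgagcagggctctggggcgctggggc
The full element TGACGTCA was found in 3 of the 8 genes with an entry, 69 to 62 bases before the start of Th, 123 to 116 before that of Scg2 and 52 to 45 before that of Slc18a2, against 1.59% of 33469 promoter windows of the rat genome. It contains TGACG on both strands. TGACG (in 18.2% of all windows) was present in 4 of the 8, these 3 and Dbh. The Npy window held neither, and its GC box (30.5% of all windows) lay 91 to 86 bases before the start. GC boxes were present in 4 of the 8 genes, and TATAAA (12.9% of all windows) in 2, Ddc and Prph. Ddc had several annotated starts, and its match lay on the opposite strand 68 to 63 bases before a single start. The other Ddc windows lacked it. A gene was counted if any of its windows matched, whereas the shares are per window. These are matches of letters, not measured binding sites.

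Npy, which encodes the vasoconstrictor and co-transmitter neuropeptide Y, was read by 10 replicate spots of a probe carried by all 3 arrays. Its processed signals ranged from 3840 to 4970 intensity units on the uninjured array, from 21300 to 30200 on the day 7 array and from 2480 to 3410 on the day 21 array. These signals are unscaled spots of single arrays. The arrays also differed in overall brightness, with 75th percentiles over all probes of 49.6 (uninjured), 210 (day 7) and 135 units (day 21). The ranges are therefore not compared between arrays as they stand. A second Npy probe, on the day 7 design alone, gave 9860 units.

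**Figure D1:**
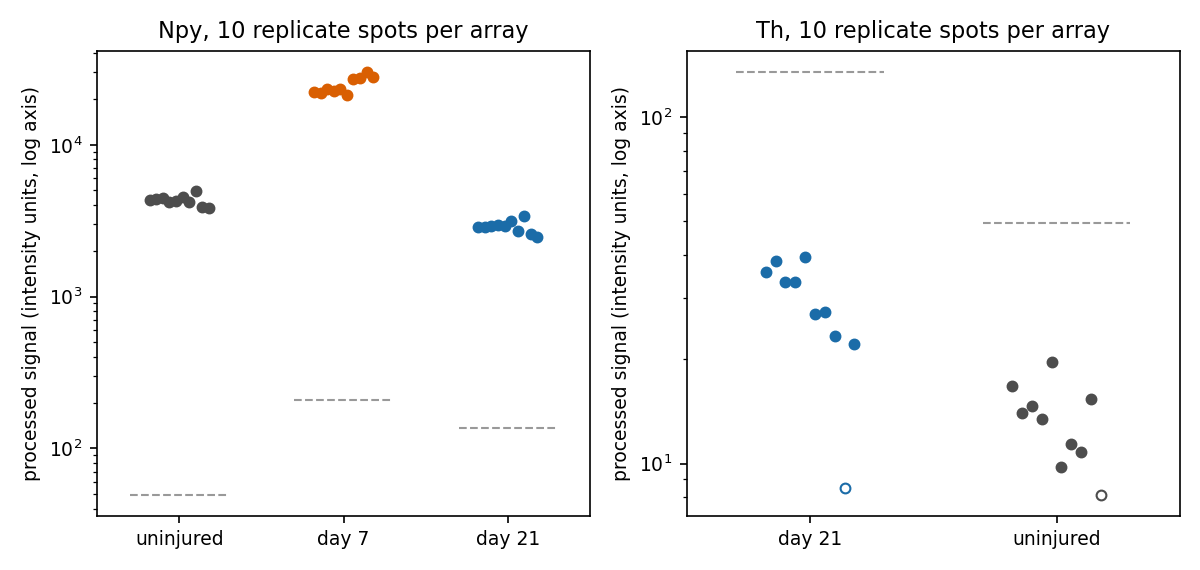
Processed signal (intensity units, log axis) of each of the 10 replicate spots of the Npy probe on the uninjured, day 7 and day 21 arrays, and of the Th probe on the day 21 and uninjured arrays. Open points are spots not well above background and dashed lines are each array's 75th percentile over all its probes; all Npy spots lie far above that line and all Th spots below it.

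A level is given below as log2 signal minus the array's 75th percentile, taken over all probes of the common design when day 21 is set against uninjured, and over the 10583 probes on all 3 arrays when day 7 is involved. The value after ± is the technical SD of a ratio, interpolated from replicate spots of similar brightness, and it holds no spread between animals.

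At day 21, Npy was the single member more than 2-fold from the uninjured artery. Its level was 4.41 on the day 21 array and 6.44 on the uninjured array, a log2 ratio of -2.03 ± 0.13, or 4.08-fold lower at day 21. Taken spot by spot at the same positions of the 2 arrays, the ratio lay between -2.09 and -1.96 at all 10 positions. The median over all genes in this comparison was -0.20, so that Npy lay 1.83 below it. Of the 7 members well above background on both arrays, 1 was at least 2-fold lower and 0 were at least 2-fold higher, where 13.7% of all 9422 genes so measured were lower and 9.12% higher. With bounds included, 15.5% of 10316 genes were lower and 10.6% higher. The count of lower members was thus near the share over all genes. The other 6 measured members ranged from -0.62 to 0.27, with a median of -0.34.

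Th, which encodes the rate-limiting enzyme of catecholamine synthesis, was dim. Its 10 spots gave 8.52 to 39.4 intensity units on the day 21 array and 8.14 to 19.7 on the uninjured array, and 9 of the 10 were well above background on each. The level was -2.33 at day 21 and -1.93 in the uninjured artery, a log2 ratio of -0.40 ± 0.39. The ratio at single positions ran from -2.30 to 0.02, and 1 position alone was below -1. The median over positions, a summary chosen after the spots were seen, was -0.22.

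Ddc, the decarboxylase that turns L-DOPA into dopamine, had 60.0 intensity units at day 21 and 28.0 in the uninjured artery. Its level was -1.17 at day 21 and -0.82 in the uninjured artery, a ratio of -0.35 ± 0.22. Dbh, the enzyme that makes noradrenaline inside the vesicle, had 35.2 units at day 21 and 10.7 in the uninjured artery. Its level of -1.94 at day 21, against -2.21 in the uninjured artery, gave the 1 positive ratio among the measured members, 0.27 ± 0.40. None of the 3 enzyme genes was past 2-fold, and the ratios of Th and Dbh were near or under their technical SD. With median scaling the Th and Ddc ratios were 0.08 and 0.13, and with normexp background correction the Dbh ratio was -0.33, so no direction is given for these genes.

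Slc18a2, which encodes the transporter that loads monoamines into vesicles, was not well above background on either array. Its brighter probe gave 7.31 units at day 21 and 8.22 in the uninjured artery, and its other probe 2.29 at day 21 and 1.86 in the uninjured artery. The lowest signal called well above background was 9.22 at day 21 and 8.31 in the uninjured artery. No fold is given.

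The granins are acidic proteins that help to form dense-core vesicles and are cut into peptides. Chga (chromogranin A) had 35.3 units at day 21 and 19.9 in the uninjured artery at the probe that was measured, with a ratio of -0.62 ± 0.28. Its second probe, at 8.50 units at day 21 and 7.29 in the uninjured artery, was not well above background on either array. The Chga ratio was -0.14 with median scaling and -0.93 as the mean of both probes. Scg2 (secretogranin II) had 39.6 units at day 21 and 17.6 in the uninjured artery, and a ratio of -0.28 ± 0.28, which was 0.20 with median scaling. Chgb (chromogranin B), at 13.8 units at day 21 and 10.4 in the uninjured artery, was not well above background on either array. Both measured granin genes thus differed by less than 2-fold, Scg2 by no more than its technical SD.

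Neuronal intermediate filaments fill axons and set their calibre. Prph (peripherin, the filament of peripheral neurons) had 231 units at day 21 and 106 in the uninjured artery, and its ratio was -0.33 ± 0.17. It was 0.15 with median scaling and 0.10 with normexp. Nefl (neurofilament light chain) had 11.8 units at day 21, well above background, and 5.12 in the uninjured artery, which was not. Its level was -3.52 at day 21 and -3.27 in the uninjured artery, so no fold is given.

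**Figure D2:**
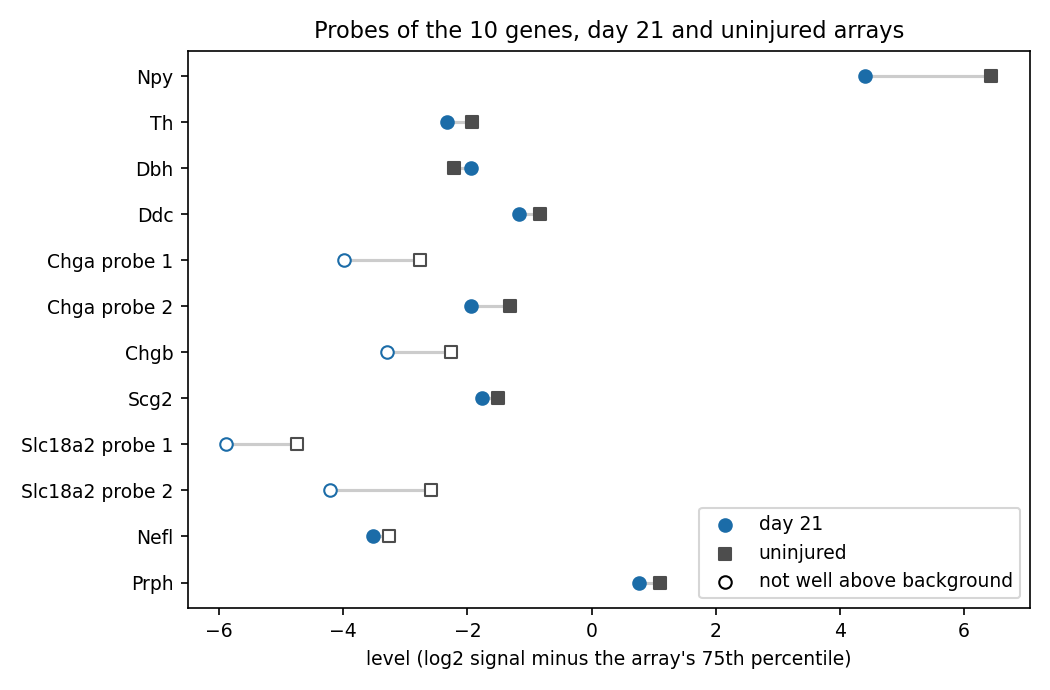
Level (log2 signal minus the array's 75th percentile) of each probe of the 10 genes on the day 21 array (circles) and the uninjured array (squares), with open symbols where a probe was not well above background. Npy lies at 4.41 at day 21 and 6.44 in the uninjured artery, while the filled pairs of the other genes lie within 0.62 of each other.

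Because any scaling of an array by a constant cancels in the difference between 2 genes, Npy was also set against each measured member within this comparison. Relative to the other members, its ratio was lower by 1.41 (Chga) to 2.29 (Dbh) on the log2 scale, or 2.65-fold to 4.91-fold. Relative to Th it was lower by 1.63, or 3.09-fold. The change of Npy was therefore unequal to that of each of these 6 genes, whatever the scaling constant. Background correction does not cancel in this way, and with normexp the ratios lay closer together, at -1.43 for Npy, -0.53 for Th, -0.50 for Chga and -0.33 for Dbh. Normexp was run with an offset of 50 units added to every spot, above the processed signals of Th, Chga and Dbh. An offset of that size narrows the ratios of dim genes, here and in the normexp counts below. Those counts therefore say little about whether a dim gene was past 2-fold. In the main setting, against the median of all genes, the other members lay at -0.43 (Chga), -0.20 (Th), -0.15 (Ddc), -0.13 (Prph), -0.08 (Scg2) and 0.46 (Dbh), and Npy at -1.83.

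The day 7 sample was hybridised to another array design, scanned separately and read by a later software release, which cannot be told apart from the time after injury. On the probes of all 3 arrays, Npy had levels of 5.08 in the uninjured artery, 6.74 at day 7 and 2.90 at day 21. It was 3.15-fold higher at day 7 than in the uninjured artery (1.66 ± 0.13), and 1.67 above the median of all genes. With percentiles over all probes of either design the ratio was 0.44 and the median of all genes -1.23. In the authors' deposited table, the Npy values were 13.08, 14.29 and 11.44 in the uninjured, day 7 and day 21 columns on a log2 scale.

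Ddc had levels of -2.18 in the uninjured artery, -2.41 at day 7 and -2.68 at day 21 on these probes. Its ratio for day 7 over uninjured, -0.23 ± 0.45, was within the technical SD. It was -2.71 in the authors' deposited table, where the median of all genes was -0.73. A second Ddc probe, on the day 7 design alone, had 2.75 units and was not well above background. Relative to Ddc, Npy was higher at day 7 by 1.89 on the log2 scale, or 3.70-fold.

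Nefl and Slc18a2 were well above background at day 7 but not in the uninjured artery. Nefl had 33.7 units at day 7 and 5.12 in the uninjured artery and was at least 2.21-fold higher. Slc18a2 had 28.6 units at day 7 and 8.22 in the uninjured artery and was at least 1.88-fold higher. The log2 bounds were 1.15 for Nefl and 0.91 for Slc18a2, with technical SDs of 0.78 and 0.79. Each gene was read by 1 spot per array, so these lower limits are not firm. With median scaling the log2 bounds were 0.77 for Nefl and 0.53 for Slc18a2. The shared Chga probe had 7.29 units in the uninjured artery, 2.93 at day 7 and 8.50 at day 21 and was not well above background on any. Of the 4 members with a ratio or a bound, 2 were at least 2-fold higher and 0 lower, where 20.2% of 6651 genes were higher and 17.9% lower (16.1% and 16.3% of the 5257 well above background on both arrays). With median scaling or quantile normalization 1 of the 4 was higher. With normexp 1 of 2 was higher. With percentiles over all probes of either design 0 of 2 were, with Npy at 0.44 and Ddc at -1.45, where the median of all genes was -1.23. Nefl and Slc18a2 have no value in either of these settings.

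Npy and Nefl were both lower at day 21 than at day 7. Npy had levels of 2.90 at day 21 and 6.74 at day 7, a ratio of -3.83 ± 0.15, or 14.2-fold lower. In Nefl the levels were -5.03 at day 21 and -2.77 at day 7, a ratio of -2.25 ± 0.68, which was -1.08 with normexp. Slc18a2 was at least 5.16-fold lower, being not well above background at day 21. Its log2 bound of -2.37, with a technical SD of 0.80, was -1.02 with normexp and -1.34 with quantile normalization. Ddc differed by -0.26 ± 0.45. Thus 3 of the 4 members with a ratio or bound were at least 2-fold lower and 0 higher, against 26.6% and 11.2% of 6796 genes (19.9% and 10.8% of the 5650 well above background on both arrays). With percentiles over all probes of either design 1 was lower, Npy at -2.46, and 1 higher, Ddc at 1.11, where the median of all genes was 1.18, with 55.2% of genes higher and 6.60% lower. Relative to Ddc, Npy was lower by 3.57 on the log2 scale, or 11.9-fold. These ratios use the same day 7 array as those of day 7 over uninjured.

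**Figure D3:**
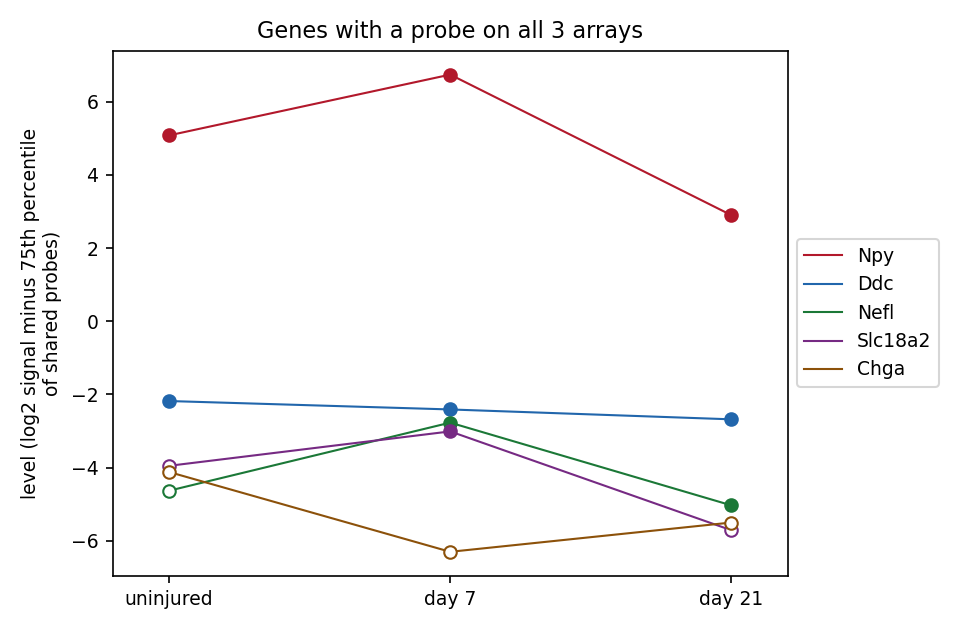
Level (log2 signal minus the 75th percentile of shared probes) of the 5 genes with a probe on all 3 arrays, by array, with open points where the probe was not well above background. Npy is at 5.08 in the uninjured artery, 6.74 at day 7 and 2.90 at day 21, whereas Ddc stays between -2.18 and -2.68.

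The probes found on the day 7 design alone showed which of the remaining genes gave signal at that time. Th had 114 intensity units, Prph 139, Chgb 33.5, Scg2 33.4 and Dbh 24.7, all well above background. In all, 9 of the 10 genes were well above background at day 7 at their brightest probe, against 8 at day 21 and 7 in the uninjured artery, on designs that differ between day 7 and the other arrays. Over all probes, 76.6% were well above background at day 7, 66.7% at day 21 and 59.8% in the uninjured artery, the same order. Chga was the gene without such a signal at day 7, as read by its 1 probe there.

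Other neuropeptide genes were examined from a list of 17. At day 21, 7 of the 16 with a probe were well above background on both arrays, and all 7 were below 0, with a median of -1.29 against -0.20 over all genes. Of these, 5 were at least 2-fold lower and 0 higher, where 13.7% of all genes so measured were lower and 9.12% higher. Penk, the enkephalin precursor gene, was at -1.40 ± 0.15 (its second probe at -0.07), and Gal, which encodes galanin, at -1.39 ± 0.18. The highest were Pomc at -0.72 ± 0.19 and Calca, the gene of calcitonin and CGRP, 1.99-fold lower. All of them stayed below 0 under each scaling, but none passed 2-fold with median scaling or with normexp. In these 2 settings 6.69% and 3.06% of all genes were at least 2-fold lower, fewer than the 15.5% in the main setting.

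Gal had the same order of levels as Npy over the 3 arrays, with -0.53 in the uninjured artery, 0.99 at day 7 and -2.07 at day 21. It was 2.88-fold higher at day 7 than in the uninjured artery and 8.36-fold lower at day 21 than at day 7. Penk had levels of 0.83, 1.48 and -0.71 in the same order. The other measured genes with a shared probe, Adcyap1 and Cartpt, went the other way at day 7. Their ratios for day 7 over uninjured were -0.91 ± 0.89 and -0.30 ± 0.91, near or under the technical SD. Of the 7 other neuropeptide genes with a shared probe, 5 had a ratio or bound at day 7, as Nts and Pdyn were not well above background on either array. Among these 5, 0 were past 2-fold lower than uninjured and 2 higher. Of all genes with a ratio or bound, 17.9% were lower and 20.2% higher. The 2 were Gal and Grp, the gastrin-releasing peptide gene, which was at least 3.88-fold higher (a log2 bound of 0.48 with normexp) and is named after its values were seen. With percentiles over all probes of either design the ratios at day 7 were 0.31 for Gal and -0.56 for Penk. In that setting 0 of the 5 were at least 2-fold higher and 2 lower, where 4.18% of all genes were higher and 58.2% lower.

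Nefm, which encodes the neurofilament medium chain that assembles with Nefl, was singled out after its values were seen. Like Slc18a2 it was well above background at day 7 alone, at least 7.08-fold higher than in the uninjured artery and at least 19.5-fold lower at day 21 than at day 7. With normexp the log2 bound at day 7 was 0.79. The heavy chain gene Nefh, likewise named after its values were seen, had the opposite bound, at least 8.16-fold lower at day 7 than in the uninjured artery, with a technical SD of 1.38; its log2 bound of -3.03 was -1.17 with normexp.

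The remaining genes of the pathway were taken from 6 further lists, of which the 2 highest and 2 lowest ratios of day 21 over uninjured are given. Of all genes with a ratio or bound in this comparison, 15.5% were at least 2-fold lower and 10.6% higher. The lower and higher shares were 6.69% and 18.7% with median scaling, 8.8% and 12.5% with quantile normalization, and 3.06% and 8.56% with normexp. Genes that process granins and peptides had a median of -0.18 over 10 measured, with 1 at least 2-fold higher and 2 lower (0 and 0 with normexp). Pam, the enzyme that amidates neuropeptide Y, was at -1.59 ± 0.13, the granin gene Scg3 at -1.22 ± 0.23, the convertase gene Pcsk1 at 0.58 ± 0.18 and the glutaminyl cyclase gene Qpct at 1.19 ± 0.41 (0.04 with normexp). Among other genes of catecholamine synthesis, transport and breakdown, 1 of 8 with a ratio or bound was at least 2-fold higher and 0 lower. Gch1, the first enzyme towards the cofactor of tyrosine hydroxylase, was at least 3.01-fold higher (a log2 bound of 0.22 with normexp). Cyb561, which encodes a vesicle membrane cytochrome, was at 0.42 ± 0.33 (-0.30 with normexp). The noradrenaline transporter gene Slc6a2 was at -0.65 ± 0.25, and Maoa, Qdpr and Spr were each at -0.18. The second probes of Maoa and Spr were at 0.20 and 0.25.

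Of 12 receptors for neuropeptide Y, noradrenaline or dopamine with a ratio or bound, 5 were past 2-fold lower at day 21 and 1, Npy1r, higher. With median scaling 2 were lower and 3 higher, with quantile normalization 2 and 2, and with normexp 2 and 0. Adra2a was at 0.90 ± 0.28 (its second probe at -0.52), Drd5 at -1.78 ± 0.18 and Adra1d at -1.77 ± 0.15. Npy1r was at 1.78 ± 0.26 at its brighter probe and at a bound of -1.73 at its second, so it has no settled direction. Of 13 measured genes of the sympathetic lineage and its growth factors, 4 were at least 2-fold lower and 0 higher, with a median of -0.95 (with median scaling 1 was lower, with normexp 0). Gata2 was at -1.76 ± 0.22, Ret at -1.15 ± 0.30, Artn at -0.28 ± 0.18 (0.20 with median scaling) and Phox2a at 0.04 ± 0.19.

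Other neuronal cytoskeleton genes gave 7 ratios and 1 bound, with 2 at least 2-fold lower and 0 higher (0 lower with median scaling or normexp). Crmp1 was at least 2.75-fold lower, Map1b at -1.25 ± 0.13 (another probe at 0.47), Uchl1 at 0.06 ± 0.42 and Tubb3 at 0.41 ± 0.18. Synaptic vesicle genes gave 5 ratios and 4 bounds, with 4 at least 2-fold lower and 0 higher (1 and 1 with median scaling, 0 and 0 with normexp). Syt1, the calcium sensor of release, was at -1.94 ± 0.44, Vamp1 at least 2.72-fold lower, Vamp2 at -0.60 ± 0.16 and Sv2a at -0.31 ± 0.17.

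**Figure D4:**
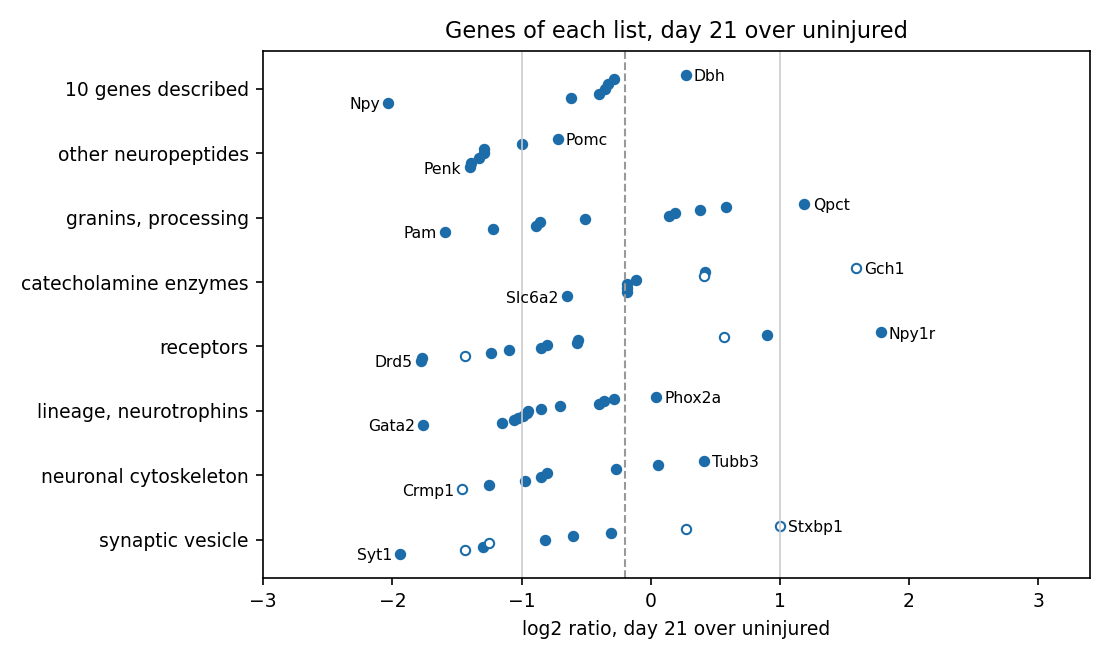
Log2 ratio of day 21 over uninjured for each gene with a ratio (filled) or a bound (open) in the 10 genes described and in 7 lists of related genes. The dashed line is the median of all genes, -0.20, the grey lines are 2-fold, and the end members of each list are named; Npy lies at -2.03, and all 7 measured neuropeptide genes lie left of the dashed line.

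The label of sympathetic neurons was checked against marker genes. Of 9 sympathetic markers with a probe, 8 were well above background on each array, with Slc18a2 missing on the uninjured and day 21 arrays and Phox2a on the day 7 array. Of 6 markers of neurons in general, 3 were well above background in the uninjured artery, 5 at day 7 and 4 at day 21. Elavl4 and Stmn2 were missing on the uninjured and day 21 arrays, Snap25 on the uninjured array and Syt1 at day 7.

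Markers of Schwann cells, the glia of these nerves, were higher at day 7 together with Npy. Of 8, 4 were well above background in the uninjured artery (not Cdh19, Erbb3, Prx and S100b), 8 at day 7 and 5 at day 21 (not Erbb3, Prx and S100b). These counts use each array's own probes, which differ at day 7. By shared probes alone, 3, 4 and 3 of 5 were well above background in the uninjured artery, at day 7 and at day 21. On the 5 with a shared probe, the summed level was 1.13, 17.7 and 0.647 times the 75th percentile in the uninjured artery, at day 7 and at day 21, where that of Npy was 33.8, 107 and 7.49 times. All 4 with a ratio or bound were at least 2-fold higher at day 7 than uninjured, where 20.2% of 6651 genes were. Platelet markers were well above background on all arrays (4 of 4), and all 3 with a shared probe were at least 2-fold higher at day 7 than uninjured. Their summed shared levels of 18.1, 48.3 and 31.2 times were mostly those of Pf4, which was at 0.95 for day 21 over uninjured, while Ppbp, Gp9 and Gp1ba were at -0.35, -0.37 and -0.52. Mast cell markers, of which 3, 4 and 4 of 8 were well above background, summed to 0.216, 0.226 and 0.181 times on 4 shared genes. Smooth muscle markers summed to 172, 37.2 and 28.2 times, macrophage markers to 5.72, 98.9 and 219 times, and endothelial markers to 1.04, 4.43 and 5.62 times on the same 3 arrays. Fibroblast markers, whose sums of 164, 332 and 165 times were mostly Col1a1, went in both directions at day 21 over uninjured, with Lum at 2.19, Pdgfra at 1.40, Dcn at -0.73 and Col1a1 at -0.80 (its other probe at 0.02). Sensory neuron markers were well above background for 3, 3 and 4 of 5 genes, cholinergic markers for 2 of 3 on each array, carotid body markers for 2 of 3, 3 of 4 and 3 of 3, and thyroid or parathyroid markers for 2 of 4, 3 of 5 and 2 of 4. The part of these cell types in the values of Npy, Nefl and Slc18a2 was not tested.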

How the data were processed

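The deposited scanner files hold intensity values of Cy3-labelled total RNA from Agilent Feature Extraction. Per the file headers, the release was 11.0.1.1 at day 7 and 10.7.3.1 on the other arrays, while the submitters' processing notes give 10.7.3.1 alone. Processed signals had been background-subtracted and detrended within each array by that program. A value table from the authors gives 9260 rows on a log2 scale, normalized in a way not given in the sources used here, with column medians of 7.64, 7.62 and 7.64. For Npy it runs in the same direction as the scanner signals; how its columns were centred is not known. Its rows for Th and Prph name probes that are not on the uninjured design and were not used.

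Control spots and outlier flags (0.242% of spots in the uninjured artery, 1.46% at day 7 and 0.274% at day 21) were left out, and 0 spots were saturated. Log2 signals were averaged over the spots of each probe, and the 75th percentile of the array was subtracted. A gene was read at its brightest probe, and probes were named through RefSeq accessions (GRCr8, names only; 17505 probes of the older design matched). Probes called well above background made up 59.8% (uninjured), 76.6% (day 7) and 66.7% (day 21). A gene seen on 1 array alone has a bound, its signal over its own signal on the other array or that array's dimmest detected probe, whichever is higher. The technical SD was interpolated over signal from probes with at least 5 replicate spots. With 1 array per group their number limits the precision, and the call is a ratio of 2-fold. Genes named from the related lists are the 2 highest and 2 lowest of day 21 over uninjured, among genes measured on both arrays or with a bound past 2-fold. Some genes of the related lists are not reported here and were left out of their counts. The members and lists were chosen with earlier results of these data known. The plan named mean spot signals for normexp; the files hold medians, which were used with an offset of 50 (limma 3.58.1).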

Additional observations from a re-analysis of the deposited data

How the results depend on the processing

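No paired analysis was possible because each group has 1 array, and none could be left out. Npy kept its direction in all comparisons under the alternatives run. For day 7 over uninjured its log2 ratio was 1.95 with normexp, 1.28 with median scaling, 2.13 with quantile normalization, 1.21 in the authors' deposited table and 0.44 with percentiles over all probes of either design (own designs below). For day 21 over uninjured it was -1.43, -1.55, -1.75 and -1.64 under the first 4 of these, and -2.18 when scaled on shared probes. For day 21 over day 7 it was -3.37 with median scaling, -2.85 in the authors' table and -2.46 on own designs. Members at least 2-fold higher at day 7 than uninjured numbered 2, and 1 with normexp, median scaling, quantile normalization or the authors' table and 0 on own designs; 0 were lower, but 1 of 2 in the authors' table and on own designs, where 40.4% and 58.2% of all genes were lower and 11% and 4.18% higher. At day 21 over uninjured 1 was lower, and 2 (with Chga) at a limit of 1.5-fold. At day 21 over day 7, 3 were lower and 0 higher, but 1 and 1 in the authors' table, which holds 2 of the members' shared probes, and on own designs, where 40.2% and 55.2% of all genes were higher and 6.16% and 6.60% lower. Of the other members' values under alternatives 12 changed sign, all of them for Th, Dbh, Ddc, Scg2 or Prph, whose ratios were under 2-fold. Low signal limits the rest: Chgb, Slc18a2 and Nefl were not well above background on the uninjured array. The causes were not tested.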
